A study of Mus musculus with 8 samples.

Results

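Many microRNAs are cut from the introns or transcripts of longer genes, called host genes. Of 10 such hosts, named for their microRNAs of mesenchymal cells, 8 were measured, of 18193 genes in all, by 22 of the array's 45101 probe sets, taken as every probe set whose annotation gives exactly 1 gene symbol and that symbol is Vmp1, Smc4, Ctdsp1, Ctdsp2, Ctdspl, Wwp2, Egfl7 or Pank3. The remaining 2 hosts, Dnm3os and Mir17hg, were annotated only together with a microRNA gene, so no level is assigned to them here. The cells were subcutaneous preadipocytes, stromal cells that can become fat cells, isolated from day 2 newborn C57BL/6 mice whose genotype was Dicer lox/lox in every sample. In the Dicer knockout group (4 samples) they received the adenovirus Ad5CMVCre-eGFP, which carries Cre recombinase and GFP, and in the control group (4 samples) Ad5CMVeGFP, which carries GFP alone. Both were given at 750 MOI with 4 µg/mL polybrene, and RNA was collected 4 days later, 1 Affymetrix array per sample. Cells with unfloxed Dicer given the Cre virus made up 0 of the arrays, so an effect of Cre or of its virus cannot be told apart from loss of Dicer. The titles number the samples of each group 1 to 4 as biological replicates. They do not say whether these came from separate animals or cultures. A p-value here thus reflects only how these samples spread, and the number of arrays limits the precision.

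In the nucleus, the enzyme Drosha cuts a hairpin out of the host transcript or its excised intron. Dicer then cuts the exported hairpin into the mature microRNA, which recognises messenger RNAs mainly through its seed, the bases near its 5′ end. A host transcript is thus made and processed upstream of Dicer, and the arrays measured the host RNA and not the microRNA. In mesenchymal cells the best known of these microRNAs are miR-199a and miR-214 from the Dnm3os transcript and miR-21, whereas miR-140 is known from cartilage and miR-126 from endothelium.

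The mature microRNAs of the 10 hosts are shown because their seeds, written in capitals (bases 2 to 8), group the hosts by what they carry. The sequences are from RefSeq, build GRCm38.p6, which held a hairpin for all 10 hosts. In that annotation 12 of the 17 hairpins examined lie inside the span of their host gene, and the 5 that do not all belong to the miR-17-92 cluster, of whose 6 hairpins 1 lies inside the annotated span of Mir17hg. The 17 distinct mature sequences carry 13 different seeds.
miR-26a-5p, from Ctdsp2 and again from Ctdspl: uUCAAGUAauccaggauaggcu
miR-26b-5p, from Ctdsp1: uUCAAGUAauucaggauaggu
miR-15b-5p, from Smc4: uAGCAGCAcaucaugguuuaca
miR-16-5p, from Smc4: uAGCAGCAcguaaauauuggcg
miR-103-3p, from Pank3: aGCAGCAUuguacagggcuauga
miR-21a-5p, from Vmp1: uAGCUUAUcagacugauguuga
miR-140-3p, from Wwp2: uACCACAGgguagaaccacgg
miR-126a-3p, from Egfl7: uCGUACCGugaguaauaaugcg
miR-199a-5p, from Dnm3os: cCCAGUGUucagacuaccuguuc
miR-199a-3p, from Dnm3os: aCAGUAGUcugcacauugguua
miR-214-3p, from Dnm3os: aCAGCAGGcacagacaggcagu
miR-17-5p, of the miR-17-92 cluster: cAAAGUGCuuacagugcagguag
miR-20a-5p, of the same cluster: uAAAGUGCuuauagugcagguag
miR-18a-5p, of the same cluster: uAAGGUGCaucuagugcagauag
miR-19a-3p, of the same cluster: uGUGCAAAucuaugcaaaacuga
miR-19b-3p, of the same cluster: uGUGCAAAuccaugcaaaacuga
miR-92a-3p, of the same cluster: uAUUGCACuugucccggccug
The 3 Ctdsp hosts thus carry 1 seed. Counted from 1 at the 5′ end, miR-26b-5p differs from miR-26a-5p by C11U and C21U, both outside the seed, and by its length of 21 against 22 bases. Smc4 carries a pair of microRNAs with 1 seed, which 10 mature names of the table share. The seed of miR-126a-3p is held by 1 name, its own.

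Values are array signals, scaled by the authors to the same mean on every array, and log2 differences are knockout minus control on log2(signal + 73.1). The median signal of an array was 357.4 to 385.8 in knockout and 321.1 to 418.9 in control samples. The odd-numbered samples of both groups stood apart from the even-numbered ones. At the 5′ probe set of 18S rRNA the signal was 5905.9 to 14007.2 on odd-numbered and 30583.9 to 43029.9 on even-numbered arrays, a difference found in both groups alike. The brighter Dicer1 probe set, 1460571_at, read 1158.3, 1190.4, 1403.8 and 1110.1 in knockout samples, against 1152.7, 1140.7, 2113.7 and 1190.3 in control samples, and the groups overlapped. The dimmer one, 1427941_at, averaged 576.9 in knockout and 736.5 in control samples (log2 difference -0.26, SE 0.27), also with overlap. Whether the probes of either lie in the excised segment is not stated in these sources, so they do not check the deletion. Of the preadipocyte and stromal markers, 10 were tested, 4 above 0 and 6 below (median -0.06), and all overlapped between groups. Of these, 0 passed the unpaired test and 1 the paired one: Dlk1, a preadipocyte surface protein, fell to a mean of 31354 in knockout samples, against 48652 in control samples (log2 difference -0.72, adjusted p = 0.0436 in the paired limma fit). Next came Dcn, a matrix proteoglycan, at -0.39 with all 4 pairs below 0 (adjusted p = 0.159 in the paired limma fit), and Pparg, a regulator of fat cell formation, at 0.28. The unadjusted paired p was under 0.05 for 4 of the 10, against 10.3% of all genes. The paired test was passed at an adjusted p under 0.05 by 0.0754% of all genes. The Dlk1 call did not hold when pair 2, 3 or 4 was left out. The paired fit then called 1, 0 and 2 of all tested probe sets, each of them higher in knockout samples. Of 7 leukocyte markers, 5 passed the filter with 2 above 0, 3 below, 0 past either test and a median of -0.01. Their summed signal of 3238 to 3571 in knockout and 3281 to 4092 in control samples overlapped, and Cd68, a macrophage marker, averaged 1007 in knockout and 1343 in control samples with all 4 pairs below 0. The leukocyte markers Ptprc, at 98.3 in knockout and 85.2 in control samples, and Itgam, at 13.5 in knockout and 9.55 in control samples, were below the filter. The 2 tested adipocyte markers had a median of 0.31, with 0 past either test.

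Of the 22 host probe sets, 17 were bright enough to be tested, covering all 8 genes, and 0 differed between knockout and control at a limma adjusted p under 0.05, against 0.0037% of all probe sets tested (1 of 27022). With same-numbered samples as pairs, 0 of 17 passed as well, against 0.0481% of all. The unadjusted limma p was under 0.05 for 2 of the 17, against 3.77% of all (both lower, against 1.69% of all), and for 3 of the 17 in the paired fit, against 9.14% of all. In 2 of the 17, both of them Egfl7, every knockout sample lay below every control sample, against 1.06% of all, and in 0 every knockout sample lay above, against 1.4% of all. The 17 log2 differences had a median of 0.01, with 10 above 0 and 7 below, and all tested probe sets had a median of 0.01 and 51.3% above 0. Outside Egfl7, the 14 differences were at most 0.20 in size, and their 95% intervals reached down to -0.54 and up to 0.53.

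**Figure D1:**
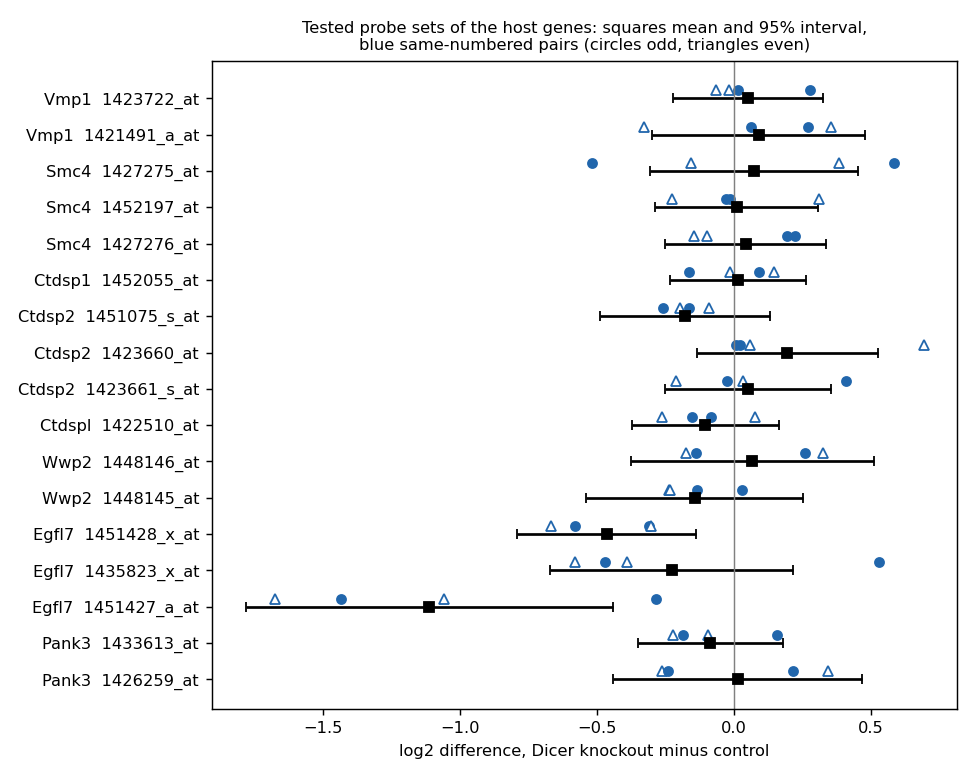
Log2 differences (knockout minus control, horizontal axis) of the 17 tested probe sets of the 8 measured host genes. Squares with bars are the mean of 4 against 4 samples with the 95% interval of the limma fit, and blue points are the 4 same-numbered pairs, circles odd and triangles even. The intervals of 15 probe sets include 0, and those of the Egfl7 probe sets 1451428_x_at and 1451427_a_at do not.

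Egfl7 encodes a secreted protein with EGF-like repeats, made mainly by endothelial cells, and carries miR-126 in an intron. Among the tested host probe sets, the lowest log2 differences were those of 3 Egfl7 probe sets. Probe set 1451428_x_at read 714.6, 758.8, 635.4 and 636.3 in knockout samples 1 to 4, against 903.6, 952.0, 984.3 and 1053.5 in control samples 1 to 4. All knockout samples were below all control samples, and each group kept within a narrow range. The means were 686.3 ± 61.0 in knockout and 973 ± 62.9 in control samples (SD, n = 4 each), and the log2 difference was -0.46 (SE 0.15; limma adjusted p = 0.999; adjusted p = 0.375 with pairs). The exact two-sided permutation p was 0.0286, the smallest that 4 against 4 samples allow, before any correction for the 27022 probe sets.

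Probe set 1451427_a_at of Egfl7 read 471.1, 433.3, 310.6 and 135.8 in knockout samples, against 589.8, 981.1, 962.2 and 593.4 in control samples. The groups again did not overlap, with knockout sample 4 the lowest of all. Its log2 difference was -1.11 (SE 0.31, limma adjusted p = 0.999; adjusted p = 0.151 with pairs), or 0.463-fold, and the 4 pairs gave -0.28, -1.06, -1.43 and -1.67. Pair 1 was the nearest to 0. Without pair 1 the paired fit gave -1.39 and an adjusted p of 0.0493, and without each of the other pairs 0.374 to 0.463. This log2 difference was -0.82 without knockout sample 4, and -0.86 in odd-numbered and -1.37 in even-numbered samples.

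The other Egfl7 probe sets did not share this separation. Probe set 1435823_x_at read 905.9, 612.3, 745.2 and 599.3 in knockout samples, against 603.9, 949.9, 1061.6 and 808.0 in control samples, so the groups overlapped. Its pair differences were -0.58, -0.47 and -0.39 in pairs 2 to 4 and 0.53 in pair 1, and its log2 difference was -0.23 (SE 0.20). Probe set 1421335_a_at, below the filter and not tested, read 316.5, 211.7, 301.8 and 130.9 in knockout samples, against 239.6, 151.3, 275.2 and 132.2 in control samples. The groups overlapped, with a log2 difference of 0.19. Over the 8 arrays the 2 separated probe sets had a Pearson correlation of 0.84 with each other, whereas 1421335_a_at gave 0.15 and -0.27 with them. The mean over the 3 tested Egfl7 probe sets had a log2 difference of -0.60 (exact two-sided permutation p = 0.0286, uncorrected and again the smallest possible). This mean includes the 2 separated probe sets and leaves out 1421335_a_at, so it is not separate evidence. The suffix x in a probe set name, here in 1451428_x_at and 1435823_x_at, marks probes that can also match other transcripts.

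**Figure D2:**
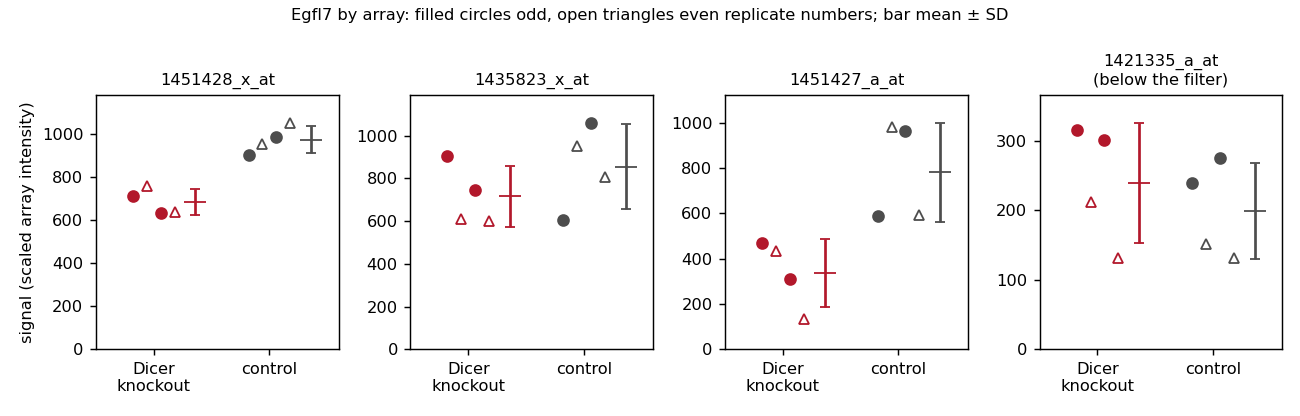
Signal (vertical axis, scaled array intensity from 0) of the 4 Egfl7 probe sets in 4 Dicer knockout (left, red) and 4 control samples (right, grey). Filled circles are odd and open triangles even replicate numbers, and bars are the mean with SD. Knockout samples lie below all control samples for 1451428_x_at and 1451427_a_at and overlap with them for the other probe sets.

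Because Egfl7 is a gene of endothelial cells, the endothelial markers are given beside it. Of 9 on the array, 5 passed the filter, with 0 past the test, 4 above 0 and 1 below, and a median log2 difference of 0.05. Their summed signal was 2467 to 3122 in knockout and 2159 to 3301 in control samples, so the groups overlapped. Kdr, a receptor for vascular endothelial growth factor, averaged 1014 in knockout and 1006 in control samples. The defining markers Pecam1, at 76.6 in knockout and 138 in control samples (log2 difference -0.52), and Cdh5, at 151 in knockout and 158 in control samples, were below the filter and not tested, as were Tie1, at 8.85 in knockout and 21.0 in control samples, and Erg, at 37.3 in knockout and 38.3 in control samples. The part of endothelial cells in the Egfl7 values was not tested. Fewer cells of a type and less RNA per cell cannot be told apart in such bulk samples. Among the known regulators of Egfl7, Ets2, an ETS family transcription factor, averaged 6400 ± 461 in knockout and 8935 ± 1642 in control samples (SD, n = 4 each), with no overlap. Its log2 difference was -0.46 (SE 0.13, limma adjusted p = 0.999, and adjusted p = 0.154 in the paired limma fit). Its relative Ets1 averaged 7033 in knockout and 5430 in control samples (log2 difference 0.32, SE 0.19), in the opposite direction.

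The hairpin of miR-126a, RefSeq GRCm38.p6 chr2:26591357-26591429, plus strand, is shown because Dicer acts on it and not on the Egfl7 message, with the mature 3′ arm in capitals.
Mir126a hairpin: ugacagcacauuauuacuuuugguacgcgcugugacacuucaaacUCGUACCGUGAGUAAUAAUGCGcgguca
RefSeq gives 3 start sites for Egfl7. The promoter of one of them, chr2:26583615-26583914, plus strand, 250 bases before the start and 50 after it, is shown with AGGAAGT, a form of the sequence that ETS factors bind, in capitals.
Egfl7 promoter: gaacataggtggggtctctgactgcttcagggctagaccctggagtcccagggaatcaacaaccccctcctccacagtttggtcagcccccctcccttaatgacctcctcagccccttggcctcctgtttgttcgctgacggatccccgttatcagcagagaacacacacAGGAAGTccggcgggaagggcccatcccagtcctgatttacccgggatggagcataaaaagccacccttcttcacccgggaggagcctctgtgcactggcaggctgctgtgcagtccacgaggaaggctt
AGGAAGT, searched on both strands, was in 2 of the 3 Egfl7 promoters and in 9.4% of all 32851 promoters of this length, and the shorter core GGAA in 96.0% of them. A match is a description of letters only. The well-known targets of miR-126 showed no common direction: of 7 tested, 3 were above 0 and 4 below, 0 passed the test, and the median log2 difference was -0.03. Spred1, an inhibitor of growth signalling and the classic target of miR-126, averaged 3739 in knockout and 3497 in control samples (log2 difference 0.10, SE 0.11). Plk2, a polo-like kinase, had 0.22 (SE 0.22) and Cxcl12, a chemokine of stromal cells, -0.11.

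Vmp1, a membrane protein of the endoplasmic reticulum needed for autophagy, carries miR-21. Its bright probe set 1423722_at read 25877, 23354, 33044 and 22386 in knockout samples, against 25582, 24407, 27250 and 22656 in control samples. The groups overlapped, and sample 3 was the highest in both. The log2 difference was 0.05 (SE 0.13, 95% interval -0.22 to 0.33, limma adjusted p = 0.999). The dimmer probe set 1421491_a_at gave 0.09 (SE 0.18) and had its lowest reading in sample 3 of either group, so the 2 probe sets did not follow each other. The hairpin of miR-21a lies at chr11:86584067-86584158, minus strand, RefSeq GRCm38.p6, and both arms that the table holds are in capitals.
Mir21a hairpin: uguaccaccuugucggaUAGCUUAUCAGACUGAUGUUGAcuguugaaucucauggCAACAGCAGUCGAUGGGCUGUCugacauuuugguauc
Of 10 tested targets of miR-21, 9 had a log2 difference above 0 and 0 passed the test in either fit, with a median of 0.19. This compares with 0.0754% of genes past the paired test and 49.6% above 0 over all 13256 genes. Btg2, an inhibitor of proliferation, averaged 4607 in knockout and 3337 in control samples (log2 difference 0.49, SE 0.25). Reck, an inhibitor of matrix proteases, had a log2 difference of 0.35 (SE 0.14), and Spry2, which dampens receptor tyrosine kinases, 0.34 (SE 0.17). The unadjusted limma p was under 0.05 for 1 of the 10, against 3.93% of genes, and for 5 of the 10 in the paired fit, against 10.3% of genes. The paired count was 5 of 12 for targets of miR-17-92, 3 of 10 for miR-15 and miR-16, 2 of 6 for miR-26, and 1 each of 11 for miR-199a and miR-214, of 9 for miR-140, of 7 for miR-126 and of 8 for miR-103. It was 4 of 14 for regulators, 6 of 32 for other hosts, 2 of 12 for paralogs and 0 of 7 for condensin genes. All these lists were chosen with earlier results of these data known, so the counts are descriptions and not a test of a list. Pdcd4, among the best known targets of miR-21, averaged 7749 in knockout and 7860 in control samples.

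Smc4, the ATPase subunit of condensin that compacts chromosomes in mitosis, carries miR-15b and miR-16. Probe set 1427275_at read 12091, 12472, 14337 and 11094 in knockout samples, against 17328, 9547, 9544 and 12375 in control samples. The control samples spread the wider, with control 1 the highest of all arrays. The log2 difference was 0.07 (SE 0.17, 95% interval -0.31 to 0.45), and the pairs ran from -0.52 in pair 1 to 0.58 in pair 3. Without pair 1 it was 0.27 in the paired fit. Of the other Smc4 probe sets, 1452197_at differed by 0.01 (SE 0.14) and 1427276_at by 0.04 (SE 0.13) on the log2 scale. The 7 other condensin genes tested had differences between -0.08 (Ncapg2) and 0.10 (Ncapd2, with Ncaph and Ncapd3 next), with 3 above 0, 4 below and 0 past the test. Among 10 tested targets of miR-15 and miR-16, 6 were above 0 and 4 below, 0 passed the test, and the median was 0.07. Ccnd1, a G1 cyclin, averaged 3881 in knockout and 2468 in control samples (log2 difference 0.74, SE 0.40, limma adjusted p = 0.999; adjusted p = 0.0884 with pairs). Ccnd2, its relative, had 0.41 (SE 0.14) and Bcl2, an inhibitor of cell death, 0.36 (SE 0.18).

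Ctdsp1, Ctdsp2 and Ctdspl encode small phosphatases that remove phosphate from the tail of RNA polymerase II and help to silence neuronal genes outside neurons. Ctdsp1 was measured by 1 probe set, 1452055_at, with 6306, 7294, 6735 and 8186 in knockout samples, against 7068, 7361, 6306 and 7379 in control samples. The groups overlapped, and its log2 difference was 0.02 (SE 0.11, 95% interval -0.23 to 0.26). Ctdspl, which also acts on the retinoblastoma protein, read 3206, 3038, 2766 and 2946 at 1422510_at in knockout samples, against 3401, 3655, 3081 and 2787 in control samples. The knockout samples lay within or just below the control range, at a log2 difference of -0.10 (SE 0.12, 95% interval -0.37 to 0.16).

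Ctdsp2 was measured by 3 probe sets that disagreed in direction. The brightest, 1451075_s_at, read 18486, 13525, 17812 and 14774 in knockout samples, against 22112, 15524, 19940 and 15743 in control samples. All 4 pairs were below 0, at -0.26, -0.20, -0.16 and -0.09, and the log2 difference was -0.18 (SE 0.14, paired SE 0.07, limma adjusted p = 0.999; adjusted p = 0.472 with pairs). Odd-numbered samples of both groups were above even-numbered ones here. The 18S probe set split the samples in the same way but in the opposite direction, with odd-numbered ones lower. Probe set 1423660_at read 1552, 2085, 1637 and 1859 in knockout samples, against 1525, 1262, 1627 and 1783 in control samples, with all 4 pairs above 0 and a log2 difference of 0.20 (SE 0.15). Most of this came from pair 2, at 0.69, and the others were at most 0.06. The third probe set, 1423661_s_at, had a log2 difference of 0.05 (SE 0.14). Of 6 tested targets of miR-26, 4 were above 0 and 2 below with a median of 0.06 and 0 past the test. Beside Ccnd2, given above, Ccne2, a cyclin of the G1 to S transition, had a log2 difference of 0.36 (SE 0.21). Ezh2, the methyltransferase of the Polycomb complex, averaged 8685 in knockout and 8120 in control samples. Rb1, the retinoblastoma gene and on the list of regulators, averaged 3217 ± 276 in knockout and 2367 ± 158 in control samples (SD, n = 4 each), with no overlap (log2 difference 0.43, SE 0.12, limma adjusted p = 0.999; adjusted p = 0.153 with pairs).

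**Figure D3:**
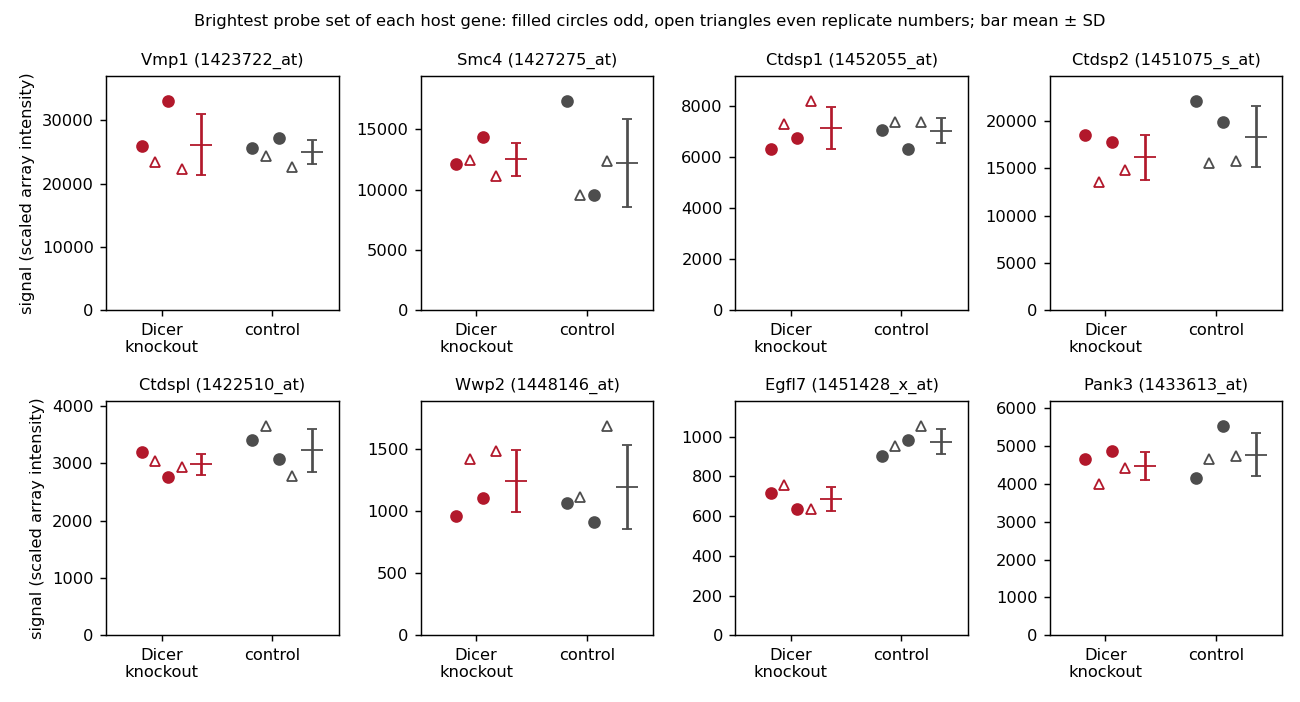
Signal (vertical axis, scaled array intensity from 0) of the brightest tested probe set of each of the 8 measured hosts in 4 Dicer knockout (left, red) and 4 control samples (right, grey). Filled circles are odd and open triangles even replicate numbers, bars the mean with SD. Only Egfl7 has no overlap between groups. In Vmp1 and Ctdsp2 both groups have their odd-numbered samples above their even-numbered ones, and in Ctdsp1 and Wwp2 below them.

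Wwp2, a ubiquitin ligase of the NEDD4 family prominent in cartilage, carries miR-140. Of its 6 probe sets, 2 were tested. Probe set 1448146_at read 959.8, 1412.8, 1103.0 and 1479.4 in knockout samples, against 1062.6, 1111.7, 909.2 and 1680.9 in control samples. Sample 4 was the highest in both groups, and the log2 difference was 0.07 (SE 0.20, 95% interval -0.37 to 0.51). At 1448145_at the log2 difference was -0.14 (SE 0.18), so the 2 differed in sign. The 4 dim probe sets read 20.4 to 404.6 in knockout and 23.6 to 474.0 in control samples, and their groups overlapped, with untested log2 differences of -0.70 to 0.54. Sox9, the cartilage transcription factor that drives Wwp2 and miR-140 in chondrocytes, averaged 1709 in knockout and 1994 in control samples (log2 difference -0.22, SE 0.15). Of the 8 chondrocyte markers, 6 were tested with 0 past the test, 5 above 0 and 1 below, and their summed signal of 3832 to 5531 in knockout and 4197 to 5042 in control samples overlapped. Among 9 tested targets of miR-140, 5 were above 0 and 4 below, 0 passed the test, and the median was 0.04. This list names miR-140 without saying which arm of its hairpin is meant. Its genes were not checked against the miR-140 seed printed above, so they cannot be read as targets of that seed. Igfbp5, a binding protein of insulin-like growth factors, averaged 805 in knockout and 1315 in control samples (log2 difference -0.80, SE 0.48; adjusted p = 0.153 in the paired limma fit). Adamts5, a protease that cleaves aggrecan, had 0.22 (SE 0.16) and Pdgfra, a growth factor receptor of stromal cells, -0.12.

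Pank3, a pantothenate kinase at the first step of coenzyme A synthesis, carries the first copy of miR-103. Probe set 1433613_at read 4647, 3979, 4850 and 4420 in knockout samples, against 4155, 4658, 5522 and 4717 in control samples. The groups overlapped, with a log2 difference of -0.09 (SE 0.12, 95% interval -0.35 to 0.18). The dimmer 1426259_at gave 0.01 (SE 0.21). The related kinases Pank1 and Pank2, which carry other members of the same microRNA family, differed by -0.02 (SE 0.18) for Pank1 and 0.18 (SE 0.15) for Pank2 on the log2 scale, and Pank4 by -0.28 (SE 0.16). Of 8 tested targets of miR-103, 6 were above 0 and 2 below, 0 passed the test, and the median was 0.05. Klf4, a zinc finger factor, averaged 15689 in knockout and 12619 in control samples (log2 difference 0.33, SE 0.27). Dicer1, itself a target of miR-103 and counted among these 8, had -0.15 and Mef2d, a transcription factor, 0.09. Because Dicer1 is also the gene that Cre cuts in knockout samples, its value cannot be read as an effect of miR-103.

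Across hosts outside the 10, 32 of 40 were tested, with 14 above 0, 18 below, 0 past the test in either fit and a median log2 difference of -0.01. Mest, an imprinted gene of growing mesenchyme, averaged 6419 in knockout and 4444 in control samples (log2 difference 0.50, SE 0.34; adjusted p = 0.251 in the paired limma fit). Trpm1, an ion channel gene, had 0.35 (SE 0.25) and Rnf130, a RING finger gene, -0.27 (SE 0.11). Of 12 tested paralogs of the measured hosts, 2 were above 0 and 10 below, 0 passed the test, and the median was -0.08. Nedd4l, a ubiquitin ligase related to Wwp2, averaged 1411 in knockout and 1865 in control samples (log2 difference -0.42, SE 0.18). Among 14 tested regulators of the hosts, 5 were above 0 and 9 below, with a median of -0.09 and 0 past the test; Ets2 and Rb1, given above, had the largest differences, and Fos, an immediate-early factor, had -0.41 (SE 0.42). Twist1, which activates Dnm3os, averaged 7777 in knockout and 8553 in control samples (log2 difference -0.14, SE 0.10).

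For the microRNAs of the hosts without an assigned level, 11 targets of miR-199a and miR-214 were tested, 7 above 0 and 4 below, with a median of 0.05 and 0 past the test. Ddr1, a collagen receptor, had the largest log2 difference, 0.33 (SE 0.27), followed by Sirt1, a deacetylase, and Hif1a, the oxygen-regulated factor, at -0.16 and 0.15. Of 12 tested targets of miR-17-92, 8 were above 0 and 4 below, with a median of 0.16 and 0 past the test. Thbs1, a secreted inhibitor of vessel growth, averaged 7943 in knockout and 5769 in control samples (log2 difference 0.48, SE 0.19; adjusted p = 0.124 in the paired limma fit), and Cdkn1a, a cell cycle inhibitor, had 0.39 (SE 0.36). Ccnd1 is also on this list. Several genes stand on more than 1 target list, so the lists are not independent.

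**Figure D4:**
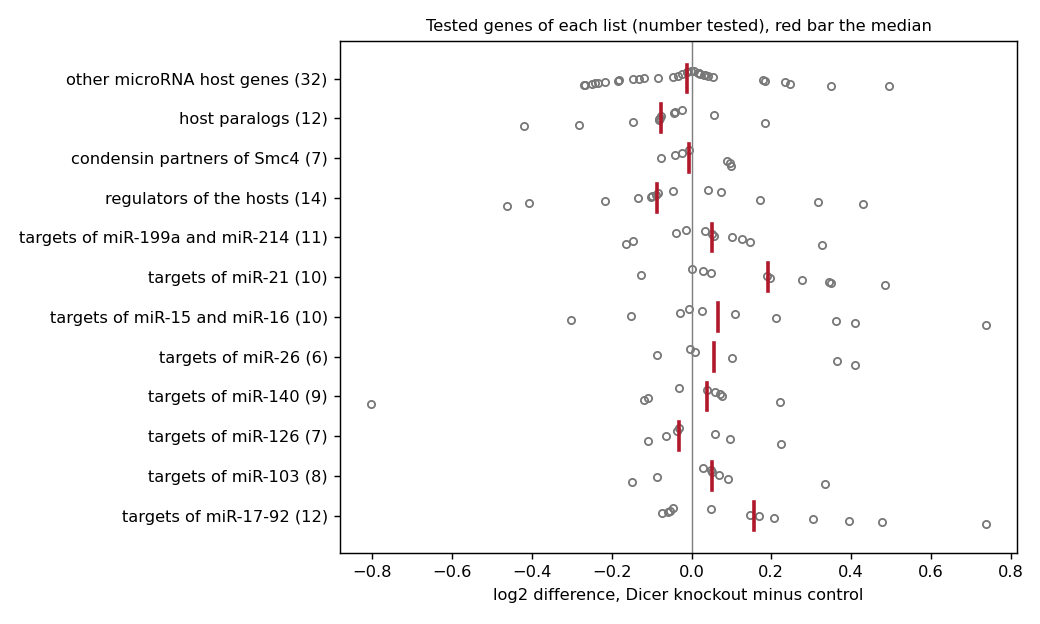
Log2 differences (knockout minus control, horizontal axis) of the tested genes on each list, by the brightest probe set of each gene, with the number tested in brackets. Red bars are list medians, which run from -0.09 for regulators of the hosts to 0.19 for targets of miR-21.

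The hosts varied among the arrays in different ways. Over the 8 arrays the Pearson correlation between the brightest probe sets of 2 hosts ran from -0.73 for Ctdsp2 and Wwp2 to 0.80 for Ctdsp1 and Wwp2. These points share the split between odd-numbered and even-numbered samples. The gene most like each host over the 8 arrays was Rpl12 for Vmp1 (Pearson 0.96), Man1b1 for Smc4 (0.97), Nfyc for Ctdsp1 (0.97), Prpf8 for Ctdsp2 (0.98), Phka2 for Ctdspl (0.98), Pdhx for Wwp2 (0.98), Tefm for Egfl7 (0.97) and Pwp2 for Pank3 (0.97). Next came Sec24a, Med31, H3c11, Zfp36, Usp33, Cfap300, Specc1l and Chat in the same order, at 0.95 to 0.98. These are the highest of 13256 genes over 8 arrays and describe likeness in these samples only. Nfyc is itself on the list of other host genes, and its rank order over the arrays was that of Ctdsp1 (Spearman 1).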

How the data were processed

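Total RNA of 8 samples was hybridised to 8 Affymetrix arrays. The authors deposited 1 linear intensity (signal) for each probe set, made with GCOS 1.3 and MAS5, per the submitters' processing notes. Their 2% trimmed mean was 1500.01 on every array, so they had been scaled before deposit, and no other normalization is stated in these sources. Values were taken as log2(signal + 73.1), the 20th percentile of all values, so differences of dim probe sets are understated. Without 64 array controls, the upper 60% by mean, 27022 probe sets, were tested with limma 3.58.1 in R 4.3.3 (lmFit, eBayes with trend, two-sided, Benjamini-Hochberg over all tested, threshold 0.05); figures used matplotlib 3.10.9. The script was checked on simulated data. Platform annotation gave 1 symbol for 34945 probe sets, several for 932 and none for 9160, and no gene was named from the last kinds. Of these, 0 symbols differed from RefSeq by gene ID. A gene stands for its brightest tested probe set, and genes named from a list are its up to 3 largest differences plus any called in either fit. Ets1, Sox9, Twist1, Pdcd4, Pank1, Ncapg2, Rcl1 and the single marker genes were named outside that rule, after their values were seen.

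Same-numbered knockout and control samples deviated together from their group means (correlations 0.34, 0.19, 0.20 and 0.37, against -0.35 to 0.15 for different numbers), so the numbers were taken as pairs and the fit with the number as a block is given as the paired fit. The titles call the samples biological replicates but do not say what a shared number stands for. The members and lists were chosen with earlier results of these data known, the lists from textbook knowledge and not from target predictions. Other choices of pseudocount, filter, normalization, trend, weights, pairing and samples were tried.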

Additional observations from a re-analysis of the deposited data

Results flagged for a closer look

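Among 34 groups of 4 samples, for the 17 tested probe sets in knockout and control, 1 held a sample far from the others. The Wwp2 probe set 1448145_at read 1044.7 in knockout sample 4, against 768.2 to 786.0 in the other 3 knockout samples. On the log2 scale its gap to the nearest sample was 0.926 of the group's range, above Dixon's critical value for 4 samples, which chance exceeds in about 1 of 20 groups. Control sample 4 was also the highest of its group, at 1241.2. Without knockout sample 4 the log2 difference of this probe set was -0.24, and without control sample 4 it was -0.01.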

How the results depend on the processing

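Of the 17 tested host probe sets, 6 kept their direction under every alternative tried and 11 changed it at least once. Of 396 alternative values, 349 kept direction and side of the threshold, 46 changed direction (32 of them with arrays left out) and 1 passed the threshold, Egfl7 1451427_a_at in the paired fit without pair 1 (adjusted p = 0.0493), so the count of host calls with a sample left out was 0 to 1. The replicate block with all 4 pairs changed no host call, which stayed at 0. Over all tested probe sets 1 was called in the unpaired limma fit, 13 with the replicate block, 0 without a filter on dim probe sets, 0 with median centring, 0 without the mean-variance trend, 0 in odd-numbered samples alone and 0 in even-numbered samples alone. At an unadjusted p under 0.05 these last 5 gave 1840, 876, 1107, 580 and 1197. With each array left out in turn the calls were 0 to 2. In the paired fit they were 80 without pair 1, 1 without pair 2, 0 without pair 3 and 2 without pair 4. The log2 differences that changed direction were as follows. With median centring the value was -0.0095 for Ctdsp1 1452055_at, -0.012 for Pank3 1426259_at and -0.016 for Smc4 1452197_at. In odd-numbered samples alone the value was -0.034 for Ctdsp1 1452055_at, 0.0303 for Egfl7 1435823_x_at, -0.011 for Pank3 1426259_at and -0.021 for Smc4 1452197_at. In the paired fit without pair 3 the value was -0.0092 for Ctdsp1 1452055_at, -0.097 for Smc4 1427275_at, -0.017 for Smc4 1427276_at and -0.021 for Vmp1 1423722_at. In the paired fit without pair 4 the value was -0.027 for Ctdsp1 1452055_at, -0.095 for Pank3 1426259_at and -0.089 for Smc4 1452197_at. With array weights the value was -0.022 for Ctdsp2 1423661_s_at and -0.0199 for Smc4 1452197_at. In even-numbered samples alone the value was -0.088 for Ctdsp2 1423661_s_at, -0.12 for Smc4 1427276_at and -0.0403 for Vmp1 1423722_at. In the paired fit without pair 1 the value was -0.067 for Ctdsp2 1423661_s_at, -0.053 for Pank3 1426259_at and -0.00704 for Smc4 1427276_at. As the mean over all tested probe sets of the gene the value was 0.024 for Ctdsp2 1451075_s_at and -0.037 for Wwp2 1448146_at. In the paired fit without pair 2 the value was -0.0299 for Smc4 1427275_at and -0.018 for Wwp2 1448146_at. With each array left out in turn it ran from -0.051 to 0.073 for Ctdsp1 1452055_at, -0.044 to 0.12 for Ctdsp2 1423661_s_at, -0.099 to 0.17 for Pank3 1426259_at, -0.029 to 0.26 for Smc4 1427275_at, -0.064 to 0.13 for Smc4 1427276_at, -0.068 to 0.10 for Smc4 1452197_at, -0.037 to 0.20 for Vmp1 1421491_a_at, -0.064 to 0.12 for Vmp1 1423722_at and -0.041 to 0.24 for Wwp2 1448146_at. The cause was not tested. With only the upper 40% by mean kept, Egfl7 1451427_a_at was below the filter and has no value. Dim probe sets, among them 5 of the 22 host probe sets, are limited by signal over background.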

Other observations

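The probe sets annotated to a host together with a microRNA gene are given by their IDs, as levels of neither gene alone. Probe set 1427298_at, annotated to Dnm3os and Mir214, read 1805.8, 1480.5, 2185.3 and 1241.4 in knockout samples, against 2367.3, 1202.9, 2016.8 and 1011.8 in control samples (log2 difference 0.07, SE 0.26). Probe set 1452382_at, with the same 2 symbols, read 2314.1, 1759.2, 3118.3 and 1517.5 in knockout samples, against 3170.2, 1755.4, 2729.6 and 1568.0 in control samples (log2 difference -0.07, SE 0.25). In both, every odd-numbered sample was above every even-numbered one in either group, and the groups overlapped. Probe set 1428694_at, annotated to Mir92-1 and Mir17hg, was dim, at 225.8, 223.1, 226.8 and 139.8 in knockout samples, against 274.3, 305.8, 190.8 and 199.5 in control samples (log2 difference -0.19, SE 0.27).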
